A study of Rattus norvegicus with 160 samples.

Results

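The genes described here encode the subunits of voltage-gated sodium and calcium channels. They are the transcripts whose RefSeq identifier maps to a rat symbol of the Scn series ending in a or b, or of the Cacna, Cacnb or Cacng series. Of 25903 rows, 9506 had a symbol and 35 met the rule, 1 row for each gene: sodium channel beta subunit genes, 9 sodium channel alpha subunit genes, 8 pore-forming calcium channel genes (Cacna1), 3 Cacna2d, 3 Cacnb and 8 Cacng genes. The hippocampal arrays measured all 35. The amygdala arrays measured 32, without Cacna1f, Scn4b and Scn9a. Cacnb4 was not analysed here.

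Total RNA was profiled from amygdala and hippocampus dissected out of male rats (strain Sprague-Dawley). They came from lines bred apart for their response to novelty, low (LR) or high (HR). It asked how the caregiving dam shapes development of the amygdala in rats prone to anxiety. The group called LR holds LR pups raised by their biological mother, LR-LR holds LR pups given to a foster LR dam, LR-HR holds LR pups given to a foster dam of the HR line, and the group called HR holds HR pups raised by their biological mother. Rats were sampled at postnatal days 7, 14 and 21 (P07, P14, P21) and as adults at day 75, with 5 arrays in each of 32 groups and 160 arrays in all. The labels name no other allele or agent. No label names a litter, and p-values therefore cover only the spread among these arrays.

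Sodium channel alpha subunits form the pore that carries the action potential, and beta subunits adjust its gating and its density at the membrane. High-voltage-activated calcium channels are built on a Cacna1 pore with an extracellular Cacna2d and an intracellular Cacnb subunit, which help the pore reach the membrane, while T-type pores (Cacna1g, Cacna1h and Cacna1i) do not need these subunits. The Cacng family holds muscle channel subunits such as Cacng1 and a set led by Cacng2 (stargazin) that escorts AMPA-type glutamate receptors to synapses. In rodent brain Scn3a is best known from the embryonic and newborn stages, Scn2a from young and unmyelinated axons, and Scn8a from mature axon initial segments and nodes of Ranvier.

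RefSeq promoter windows of assembly GRCr8, 250 bases before to 50 bases after the transcription start, were matched for 24 of the 35 genes, with 27 windows in all. Those of Cacng3, Scn8a, Scn3a and Scn2b are shown, 4 of the 14 channel genes higher in the adult amygdala of LR-HR rats, relative to LR-LR. Others of the 14, such as Cacnb2, also had a window and are not shown. They lie at chr1:186632312-186632611 (plus strand), chr7:133860977-133861276 (plus strand), chr3:70666149-70666448 (minus strand) and chr8:54322133-54322432 (plus strand). Each is printed 5′ to 3′. Capitals mark TTCAGCACC, the start of the RE1 element bound by the repressor REST, and the Sp box GGGCGG on either strand of the window, read as CCGCCC where it lies on the other strand.
Cacng3: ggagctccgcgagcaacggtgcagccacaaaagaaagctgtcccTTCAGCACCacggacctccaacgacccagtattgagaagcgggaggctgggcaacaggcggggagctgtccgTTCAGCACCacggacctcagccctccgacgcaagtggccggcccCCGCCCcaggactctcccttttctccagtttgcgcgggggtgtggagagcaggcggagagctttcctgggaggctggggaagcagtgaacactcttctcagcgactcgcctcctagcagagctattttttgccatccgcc
Scn8a: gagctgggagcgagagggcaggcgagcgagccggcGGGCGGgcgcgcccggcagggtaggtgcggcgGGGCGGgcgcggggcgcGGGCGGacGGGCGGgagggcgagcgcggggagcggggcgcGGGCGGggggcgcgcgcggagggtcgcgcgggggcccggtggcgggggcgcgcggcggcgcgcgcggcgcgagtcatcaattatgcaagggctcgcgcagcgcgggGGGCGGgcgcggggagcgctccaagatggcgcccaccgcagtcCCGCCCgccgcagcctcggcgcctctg
Scn3a: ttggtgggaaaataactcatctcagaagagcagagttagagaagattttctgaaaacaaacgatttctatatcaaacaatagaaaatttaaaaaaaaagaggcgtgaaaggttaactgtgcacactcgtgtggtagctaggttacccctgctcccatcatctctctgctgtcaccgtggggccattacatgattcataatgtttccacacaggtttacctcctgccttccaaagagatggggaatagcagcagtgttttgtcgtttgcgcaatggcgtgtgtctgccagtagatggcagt
Scn2b: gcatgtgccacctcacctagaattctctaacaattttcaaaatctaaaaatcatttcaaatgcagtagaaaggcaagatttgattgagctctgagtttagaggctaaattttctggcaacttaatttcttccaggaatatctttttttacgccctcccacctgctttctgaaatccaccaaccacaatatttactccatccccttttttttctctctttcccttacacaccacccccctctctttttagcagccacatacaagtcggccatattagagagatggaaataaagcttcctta

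These windows differ in composition. That of Scn8a is 84.7% G and C with 60 CG pairs, that of Cacng3 63% G and C with 19 CG pairs, that of Scn3a 43.3% G and C with 7 CG pairs and that of Scn2b 39% G and C with 2 CG pairs. The median over all 33469 windows of the table is 7 CG pairs. Both strands were searched. The Sp box occurs in 33.1% of all windows and in those of 11 channel genes, with 7 copies in that of Scn8a, the first at position -215 and the last at 24 from the start. The RE1 start occurs in 0.356% of all windows and, among the channel genes, in that of Cacng3, at positions -206 and -134. A longer RE1 core that begins with those letters occurs in 0.00598% of all windows and in 0 of the 27. The TATA box TATAAA (14.2% of all windows) occurs at Cacng2. The letters TGACG of the cAMP response element (21.2%) occur at Cacna1b, Cacna1c, Cacna2d1, Cacnb2 and Scn10a. The motifs were chosen with results known, and a match describes letters only.

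Values are log2 intensities. They are compared only within a region, since the regions were taken to be normalized separately, and not between genes, since probes differ in brightness. Few markers could check the tissue labels. Of 4 amygdala markers Cyp26b1 (mean 8.27) and Prkcd (8.66) were measured there, and of 4 hippocampal markers only Wfs1, at 8.80 in the hippocampus and also at 11.17 in the amygdala. A random control sequence, present in the hippocampal values only, had a mean of 5.89 (range 5.73 to 6.21). Scn9a was at or below it on 60 of 80 arrays, Scn4b on 51, Cacna2d2 on 33, Cacna1f on 30, Cacng1 on 29, Scn4a on 23, Scn11a on 17, Scn2b on 15 and Cacng5 on 7. The amygdala values allow no such check, though some of these genes are named there below. In the hippocampus at P21, LR replicate 5 and all 5 LR-LR arrays had a median correlation of 0.663 to 0.761 with the rest of their group, under the 0.8 used here to mark arrays that stand apart. All other arrays reached 0.872 or more.

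The first comparison asks how channel genes changed as each region matured, with rearing groups averaged. Cacng3, an AMPA receptor escort, rose from P07 to adulthood in both regions, by 2.11-fold in the amygdala and 2.58-fold in the hippocampus. Scn2b, Scn8a, Cacnb1, Cacnb2 and Cacna2d1 also rose in both, and Cacng4, another escort, fell in both. In the amygdala 7 channel genes rose and 4 fell, 34.4% of 32, against 34.9% of all 22197 transcripts (17.9% up, 17% down). In the hippocampus 14 rose and 4 fell, 51.4% of 35, against 26.2% of all transcripts (14.9% up, 11.2% down). The amygdala share is thus near the background. Median hippocampal changes were 0.24 over the channel genes and -0.04 over all transcripts. In whole tissue, fewer cells of a type and less RNA per cell cannot be told apart.

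Genes called over the span were also counted within each rearing group, an alternative added after seeing the data, and differences between these spans were not tested. In the amygdala 3 genes rose and 6 fell in LR (6.76% and 9.2% of all transcripts), 4 and 5 in LR-LR (6.45% and 10.3%), 7 and 3 in LR-HR (10.3% and 6.51%), and 6 and 1 in HR rats (14.7% and 9.79%). Scn8a changed by 0.17 ± 0.24 in LR rats (adjusted p = 0.739) and rose by 1.07 ± 0.24 in LR-LR, 1.58 ± 0.24 in LR-HR and 0.75 ± 0.24 in HR rats. Cacnb2 changed by 0.17 ± 0.24 in LR (adjusted p = 0.733) and 0.43 ± 0.24 in LR-LR (adjusted p = 0.247) and rose by 1.18 ± 0.24 in LR-HR and 1.49 ± 0.24 in HR rats. In the hippocampus 10 genes rose and 1 fell in LR (4.4% and 1.38% of all transcripts), 13 rose in LR-LR (8.12%), and 4 rose and 1 fell in both LR-HR (3.96% and 1.33%) and HR rats (3.4% and 1.46%).

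**Figure D1:**
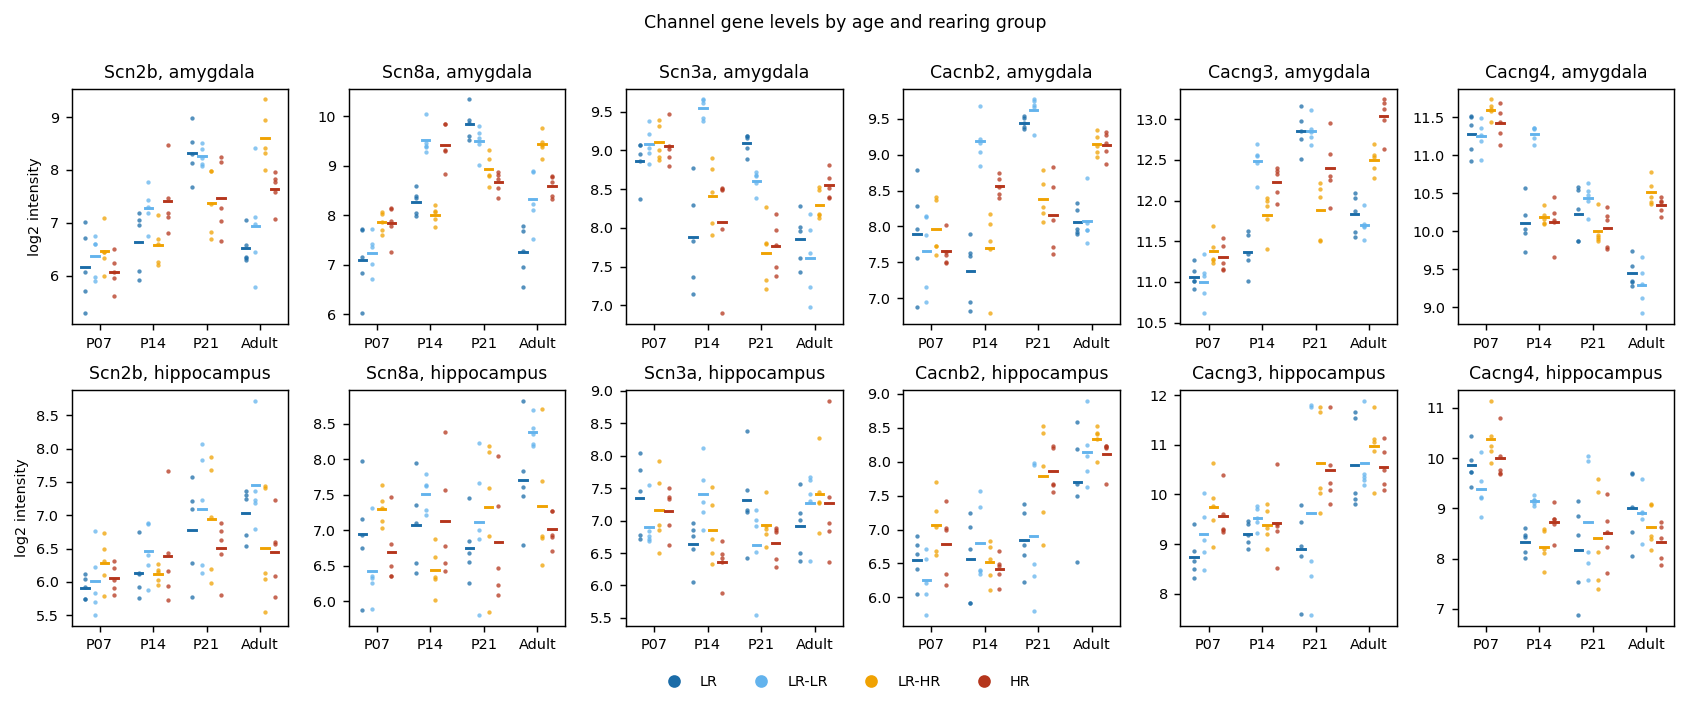
Log2 intensity of 6 channel genes in the amygdala (top) and hippocampus (bottom) by age, 1 point per array and a bar at the mean of 5 arrays, coloured by rearing group. The median of Scn2b climbs from 6.28 to 7.35 (amygdala) and 6.03 to 6.99 (hippocampus), and that of Cacng4 goes from 11.43 to 9.96 and from 9.82 to 8.67.

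Among beta subunits, Scn2b, which is disulphide-linked to the pore, rose by 1.16 ± 0.17 (SE) in the amygdala (adjusted p = 1.39e-08, limma with Benjamini-Hochberg adjustment over all transcripts) and 0.80 ± 0.18 in the hippocampus (adjusted p = 0.00031). Its amygdala arrays ran from 5.29 to 7.09 (median 6.28) at P07 and from 5.79 to 9.34 (median 7.35) in adults, so the ages overlapped. In the hippocampus at P07 Scn2b was near the random control. It was at or below that control on 3 of 5 arrays in both LR and LR-LR and on 1 of 5 in both LR-HR and HR pups. Scn3b, another beta subunit, rose by 1.49 ± 0.14 in the hippocampus (adjusted p = 1.07e-14), where it ran from 6.88 to 8.94 (median 7.93) at P07 and from 8.74 to 10.03 (median 9.39) in adults. In the amygdala Scn3b changed by -0.07 ± 0.11 (adjusted p = 0.676). Hippocampal Scn4b, a beta subunit tied to resurgent current, had medians of 5.53 at P07, 5.62 at P14, 6.02 at P21 and 5.73 in adults, close to the random control.

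Among alpha subunits, Scn8a rose by 0.89 ± 0.12 in the amygdala (adjusted p = 1.93e-09) and 0.77 ± 0.19 in the hippocampus (adjusted p = 0.00143). Amygdala Scn8a ran from 6.02 to 8.14 (median 7.71) at P07, from 7.77 to 10.05 (median 8.71) at P14, from 8.36 to 10.34 (median 9.23) at P21 and from 6.55 to 9.77 (median 8.54) in adults. All P21 arrays were above all P07 arrays, while adult arrays spread across both. Scn3a, the channel of young neurons, fell by 0.95 ± 0.12 in the amygdala (adjusted p = 2.23e-10), where it ran from 8.37 to 9.47 (median 9.01) at P07 and from 6.99 to 8.82 (median 8.17) in adults. Its hippocampal change was 0.08 ± 0.16 (adjusted p = 0.775).

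Scn1a, best known from inhibitory interneurons, rose by 0.80 ± 0.15 in the hippocampus (adjusted p = 1.02e-05), with medians of 6.69 at P07, 6.83 at P14, 7.33 at P21 and 7.58 in adults. In the amygdala its change of 0.07 ± 0.11 did not pass the test. Scn2a rose by 0.43 ± 0.17 in the hippocampus (adjusted p = 0.0472), a call lost in 23 of 40 fits that left out 1 array. Its amygdala medians were 11.30 at P07, 11.48 at P14, 11.60 at P21 and 11.46 in adults. Scn11a, a channel of sensory neurons, fell by 0.41 ± 0.14 in the hippocampus (adjusted p = 0.0263), near the random control.

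Of the pore-forming calcium channel genes, limma called 0 of 7 over the amygdala span (34.9% of all transcripts called), with 1 at an unadjusted p under 0.05. In the hippocampus it called 3 of 8 (26.2% of all transcripts called). There the T-type channel Cacna1h rose by 0.64 ± 0.17 (adjusted p = 0.00271) and the R-type channel Cacna1e by 0.53 ± 0.17 (adjusted p = 0.0132). The T-type channel Cacna1g fell by 0.43 ± 0.16 (adjusted p = 0.0399), a call lost in 15 of 40 fits that left out 1 array. It ran from 7.11 to 8.91 (median 8.39) at P07 and from 7.05 to 8.48 (median 7.80) in adults. Amygdala medians of Cacna1g were 9.29 at P07, 9.51 at P14, 9.35 at P21 and 9.21 in adults.

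The P/Q-type channel Cacna1a, which drives transmitter release, had medians of 9.63 at P07, 9.82 at P14, 10.23 at P21 and 9.78 in adults in the amygdala. In the hippocampus they were 8.78 at P07, 8.75 at P14, 8.9995 at P21 and 9.10 in adults. The L-type channel Cacna1c had medians of 8.56 at P07, 8.50 at P14, 8.61 at P21 and 8.64 in adults in the amygdala and 8.17 at P07, 8.10 at P14, 7.91 at P21 and 7.99 in adults in the hippocampus. Neither gene passed the test over the span in either region.

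Among the auxiliary calcium channel genes, Cacnb2 rose by 0.82 ± 0.12 in the amygdala (adjusted p = 4.08e-08) and 1.41 ± 0.16 in the hippocampus (adjusted p = 6.22e-11). Cacnb1, first described in muscle, rose by 0.71 ± 0.10 (adjusted p = 2.97e-09) and 1.12 ± 0.18 (adjusted p = 6.93e-07), while Cacnb3 fell in the amygdala by 0.36 ± 0.10 (adjusted p = 0.00329). All 3 encode intracellular subunits that bind the pore. Cacna2d1, a target of gabapentin, rose by 1.18 ± 0.14 in the hippocampus (adjusted p = 6.01e-11), where it ran from 6.70 to 8.45 (median 7.45) at P07 and from 7.77 to 9.44 (median 8.64) in adults. Its amygdala rise of 0.33 ± 0.13 (adjusted p = 0.0449) was lost in 23 of 40 fits that left out 1 array. Cacna2d3 rose by 0.81 ± 0.15 in the hippocampus (adjusted p = 1.2e-05) and had amygdala medians of 9.81 at P07, 9.73 at P14, 10.05 at P21 and 9.80 in adults.

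In the Cacng family, AMPA receptor escorts moved both ways. Cacng3 rose by 1.08 ± 0.08 in the amygdala (adjusted p = 3.88e-19) and 1.37 ± 0.24 in the hippocampus (adjusted p = 3.99e-06). Cacng8, an escort known from hippocampal pyramidal cells, rose by 1.29 ± 0.17 in the hippocampus (adjusted p = 1.32e-09), where it ran from 7.59 to 10.02 (median 8.57) at P07 and from 9.17 to 10.58 (median 9.96) in adults. Cacng4 fell by 1.49 ± 0.08 in the amygdala (adjusted p = 1.92e-27) and by 1.19 ± 0.19 in the hippocampus (adjusted p = 3.12e-07). Its amygdala arrays ran from 10.92 to 11.74 (median 11.43) at P07 and from 8.92 to 10.78 (median 9.96) in adults, without overlap. Cacng2 fell by 0.44 ± 0.09 in the amygdala (adjusted p = 3.82e-05) and had hippocampal medians of 10.26 at P07, 10.21 at P14, 10.29 at P21 and 10.53 in adults. Cacng6, a relative of the muscle subunit, fell by 0.88 ± 0.21 in the hippocampus (adjusted p = 0.000804).

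**Figure D2:**
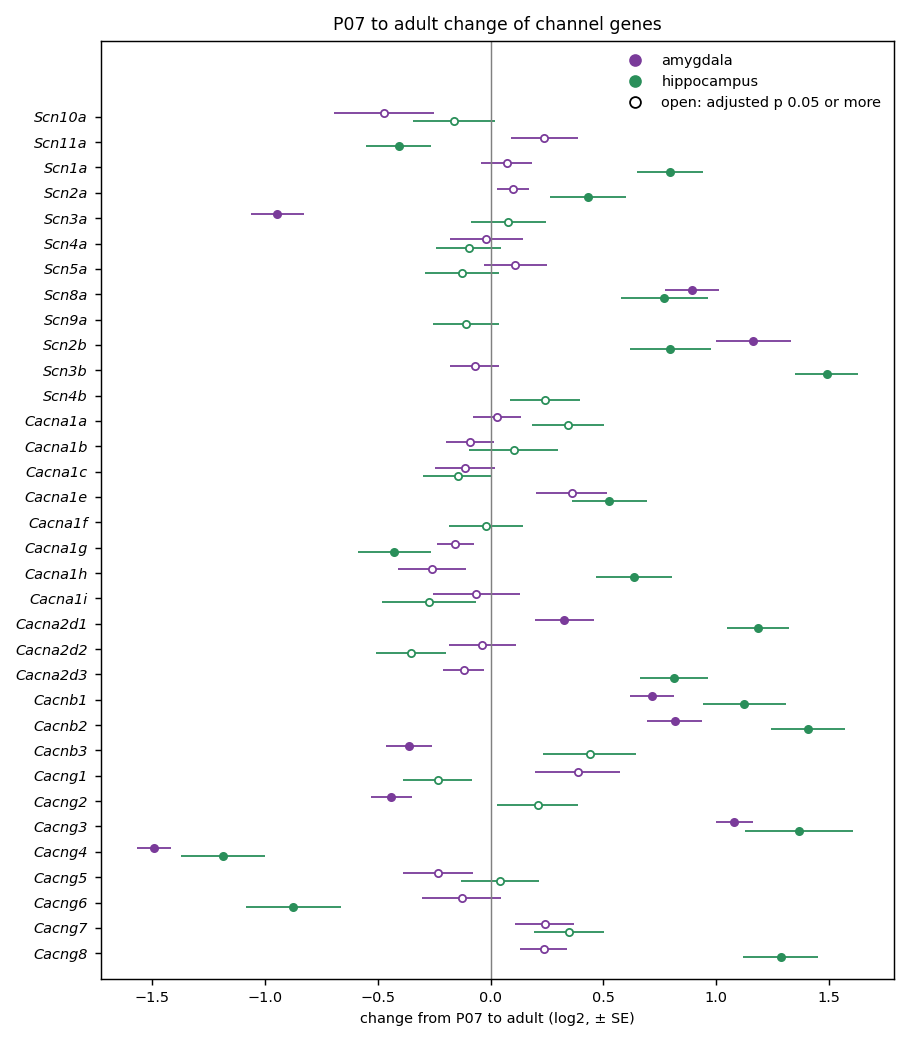
Change in log2 intensity from P07 to adulthood for 34 channel genes with its standard error, rearing groups averaged, purple for the amygdala and green for the hippocampus; open points did not reach an adjusted p under 0.05. Cacng3 lies at 1.08 and 1.37 and Cacng4 at -1.49 and -1.19.

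Taken by step, 11 amygdala channel genes rose and 4 fell from P07 to P14 (27.6% of all transcripts, 14.9% up and 12.7% down). Scn8a rose by 1.30 ± 0.12 and Cacna1e by 0.80 ± 0.16, while Cacng4 fell by 0.97 ± 0.08, Scn3a by 0.54 ± 0.12 and the T-type channel Cacna1i by 0.49 ± 0.19. The call of Cacna1i was lost in 23 of 40 fits that left out 1 array. From P14 to P21 7 rose and Cacng4 fell (15.3% of all transcripts, 9.44% up and 5.83% down), led by Scn2b (0.88 ± 0.17), Cacnb2 (0.70 ± 0.12) and Cacnb1 (0.65 ± 0.10). From P21 to adulthood 9 fell and 1 rose (19.7% of all transcripts, 8.01% up and 11.7% down). Scn8a fell by 0.83 ± 0.12, Cacna1e by 0.55 ± 0.16 and Cacng8 by 0.52 ± 0.10, and Cacng1 rose by 0.71 ± 0.19. Cacng1 was at or below the random control on 29 of 80 hippocampal arrays, and the amygdala values hold no such control. In the step from P14 to P21, 17 genes rose in LR pups and 1 in each other rearing group. Cacnb2 rose by 2.07 in LR pups and was not called in LR-LR (0.44), LR-HR (0.68) or HR pups (-0.41). The Cacng4 fall was called in LR-LR pups only (-0.84). From P21 to adulthood the rearing groups moved in opposite directions. Counts differed between the groups in each step, as given further on.

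In the hippocampus 4 channel genes rose and 2 fell from P07 to P14 (12.1% of all transcripts, 7.44% up and 4.71% down). Cacng8 rose by 0.88 ± 0.17 and Scn2a by 0.68 ± 0.17, while Cacng4 fell by 1.29 ± 0.19 and Cacnb3 by 0.78 ± 0.21. From P14 to P21 7 rose and 1 fell (20.2% of all transcripts, 8.65% up and 11.5% down). Cacnb1 rose by 0.79 ± 0.18, Cacnb2 by 0.77 ± 0.16, Scn2b by 0.56 ± 0.18 and Scn3b by 0.39 ± 0.14, and Cacna1i fell by 0.73 ± 0.21. The Scn3b call was lost in 12 of 40 fits that left out 1 array and in the fit of the compared ages only (adjusted p = 0.0861). From P21 to adulthood 10 rose and 1 fell (15.2% of all transcripts, 10.2% up and 4.99% down). Scn3b rose by 1.13 ± 0.14 and Cacna2d1 by 0.87 ± 0.14, and Cacna2d2 fell by 0.43 ± 0.15, a call lost in 21 of 40 fits that left out 1 array.

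These hippocampal steps rest in part on the P21 arrays that stood apart. Scn3b at P21 read 7.71, 6.23, 6.64, 8.34 and 8.55 in LR-LR pups and 8.02, 8.68, 8.25, 7.92 and 7.87 in LR pups. It read 8.52, 8.77, 9.10, 7.78 and 8.29 in LR-HR pups and 8.97, 8.77, 8.85, 9.01 and 8.29 in HR pups. The lowest arrays were LR-LR replicates 2, 3 and 1. Within rearing groups Scn3b fell from P14 to P21 in LR-LR pups by 1.07 ± 0.28 (adjusted p = 0.0078), rose by 1.05 ± 0.28 in LR-HR and 0.97 ± 0.28 in HR pups, and changed by 0.60 ± 0.28 in LR pups (adjusted p = 0.242). In that step 5 channel genes rose in HR (5.9% of all transcripts) and 2 in LR-HR pups (1.75%), and 2 fell in LR-LR (5.47%) and 1 in LR pups (2.31%). From P21 to adulthood 9 rose in LR-LR rats (9.43%). In that step limma called 0 of 35 in LR, 0 in LR-HR and 0 in HR rats (0.676%, 0.0772% and 0.0965% of all transcripts rose). An unadjusted p under 0.05, not counted over all transcripts, was found for 14, 4 and 5.

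Other lists moved on the same P21 arrays. LR-LR replicates 1, 2 and 3 had channel means of 7.49, 7.37 and 7.23 and ribosomal means of 11.82, 11.62 and 11.92, against 8.22 and 8.27 and 10.89 and 10.89 in replicates 4 and 5. The neuron list (5 of 6 measured) had a mean and range of 11.15 (10.11 to 12.58) in LR-LR and 11.99 (11.52 to 12.42) in LR-HR pups, and the astrocyte list (6 of 6) of 8.80 (7.65 to 10.41) and 10.47 (10.23 to 10.60). Their part in these steps was not tested. The fit without the 6 arrays has 3 rearing groups at P21 and 4 at P14 and in adults, so age and rearing are mixed. In it 8 genes rose and 2 fell from P14 to P21 and 5 rose from P21 to adulthood. Shares of all transcripts in this fit are not given here. Scn3b then rose by 0.66 ± 0.13 and 0.86 ± 0.13 in these steps, Scn2b changed by 0.43 ± 0.19 in the first (adjusted p = 0.0819), and Cacna2d2 changed by -0.31 in the last (adjusted p = 0.246). The Scn4b call of the first step was also lost (limma adjusted p = 0.105). In the last step the calls of Cacng2, Cacng3, Scn8a, Cacnb3 and Cacna2d3 were lost too (limma adjusted p = 0.0612 to 0.684). Without LR-LR replicate 5 of P21 alone, 5 genes changed from P14 to P21.

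The change from P07 to adulthood was compared between regions in a fit of all 160 arrays. It was lower in the amygdala for 11 of 32 genes and higher for 1, against 10.3% and 5.3% of 22192 transcripts (15.6% in all). Scn3b differed by -1.56 ± 0.18 (adjusted p = 5.85e-12) and Cacng8 by -1.05 ± 0.20 (adjusted p = 3.48e-05), amygdala minus hippocampus. Scn11a alone was higher, by 0.65 ± 0.21 (adjusted p = 0.0197). Median differences were -0.30 over the channel genes and -0.01 over all transcripts. The part of normalization in these differences was not tested. The fit treated the arrays as independent, and the labels do not say whether same-numbered amygdala and hippocampus arrays came from 1 rat.

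The foster comparison, LR-HR against LR-LR, asked whether the foster dam altered channel genes of LR pups. In the amygdala no channel gene passed the test at P07, 12 were lower in LR-HR pups at P14 and 12 at P21, and in adults 14 were higher and 2 lower. At P07 6 of 32 had an unadjusted p under 0.05, a threshold not counted over all transcripts. Limma called 0 of 32 (0.0901% of all transcripts), and 1 without LR-LR replicate 5. The calls at P14 stood against 22.3% of all transcripts called and 13.7% lower, and those at P21 against 21.6% and 15.5%. In adults 21.7% of all transcripts were called and 17.2% were higher and 4.55% lower. Median differences were -0.33 over the channel genes and -0.02 over all transcripts at P14, -0.48 over the channel genes and -0.15 over all transcripts at P21, and 0.56 over the channel genes and 0.12 over all transcripts in adults. Of the 3 Cacnb genes, 2 were lower at P14 and at P21 and 3 were higher in adults.

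At P14 Cacng5, Scn8a and Cacnb2 were furthest apart. Scn8a read 8.07, 8.22, 8.10, 7.77 and 7.93 in LR-HR pups and 9.41, 9.46, 9.28, 9.38 and 10.05 in LR-LR pups. It read 8.36, 8.59, 7.99, 8.05 and 8.39 in LR pups and 8.84, 9.85, 9.31, 9.84 and 9.31 in HR pups. LR-LR and HR arrays were high and LR and LR-HR arrays low, without overlap. The foster difference was -1.50 ± 0.21 (adjusted p = 3.05e-05). Cacnb2 read 7.69, 6.79, 7.80, 8.17 and 8.04 in LR-HR and 8.84, 9.22, 9.69, 9.04 and 9.16 in LR-LR pups, again without overlap (-1.49 ± 0.25, adjusted p = 0.000194). Cacng5, an AMPA receptor escort, differed by -1.53 ± 0.28 (adjusted p = 0.000455). The other lower genes were Cacna2d2, Scn3a, Cacng4, Cacna2d3, Cacnb1, Scn3b, Cacng3, Cacna1e and Cacna1c, with differences of -1.19 to -0.54. The Cacna1c call was lost in 6 of 10 fits that left out 1 array and with quantile normalization (adjusted p = 0.123).

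At P21 Cacna1e, Cacnb2 and Cacna2d2 were furthest apart, by -1.34 ± 0.27 (adjusted p = 0.00174), -1.25 ± 0.22 (adjusted p = 0.000549) and -1.17 ± 0.22 (adjusted p = 0.000994). Cacnb2 read 8.19, 8.06, 8.59, 8.27 and 8.79 in LR-HR and 9.77, 9.27, 9.75, 9.70 and 9.66 in LR-LR pups. LR pups read 9.52, 9.53, 9.36, 9.39 and 9.44 and HR pups 8.09, 8.54, 7.62, 8.83 and 7.71. Both groups with LR dams were above both groups with HR dams. Scn3a split the same way, at 7.21, 8.27, 7.79, 7.32 and 7.80 in LR-HR and 7.79, 7.49, 7.97, 7.38 and 8.18 in HR pups. It read 8.68, 8.67, 8.38, 8.73 and 8.58 in LR-LR and 9.03, 9.19, 9.16, 8.89 and 9.19 in LR pups. The other lower genes of the foster comparison were Cacng5, Cacng3, Scn3a, Scn2b, Cacna1a, Cacnb1, Cacna2d3, Cacng7 and Scn3b, with differences of -1.04 to -0.65. The calls of Scn2b, Cacng7, Cacng5 and Scn3b were lost in 8, 7, 5 and 3 of 10 fits that left out 1 array. With quantile normalization these calls and that of Cacna1a were lost, at an adjusted p of 0.0628 to 0.136.

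In adults Scn2b, Cacng5 and Cacng4 were furthest above. Scn2b read 7.99, 8.42, 8.32, 8.95 and 9.34 in LR-HR and 5.79, 6.98, 6.44, 8.41 and 7.12 in LR-LR rats, overlapping through LR-LR replicate 4 (1.66 ± 0.35, adjusted p = 0.00249). Cacng5 read 8.25, 8.29, 8.04, 7.84 and 7.92 against 6.49, 8.38, 5.62, 6.49 and 6.07, where LR-LR replicate 2 was high (1.46 ± 0.35, adjusted p = 0.00582). Cacng4, which fell with age, differed by 1.22 ± 0.17 (adjusted p = 9.14e-05). Scn8a read 9.43, 9.13, 9.39, 9.48 and 9.77 in LR-HR rats, above all LR-LR arrays at 7.52, 8.89, 8.11, 8.87 and 8.22. The lower genes were Cacng6 and Scn11a. Cacng6 read 7.72, 7.35, 8.34, 7.65 and 7.12 against 9.13, 8.83, 9.65, 8.70 and 7.97, with overlap (-1.22 ± 0.33, adjusted p = 0.0119), and Scn11a differed by -1.01 ± 0.26 (adjusted p = 0.00919). Scn2b, Cacng5 and Scn11a were at or below the random control on 15, 7 and 17 of 80 hippocampal arrays. The amygdala values hold no such control. The other higher genes were Cacna2d2, Cacnb1, Scn8a, Cacnb2, Cacna2d1, Cacng8, Scn3b, Cacng3, Scn3a, Cacnb3 and Cacng2, with differences of 0.59 to 1.13. The calls of Cacna2d1, Cacnb3 and Scn3a were lost in 5, 4 and 4 of 10 fits that left out 1 array, and with quantile normalization these and that of Cacng2 were lost (adjusted p = 0.102 to 0.157).

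**Figure D3:**
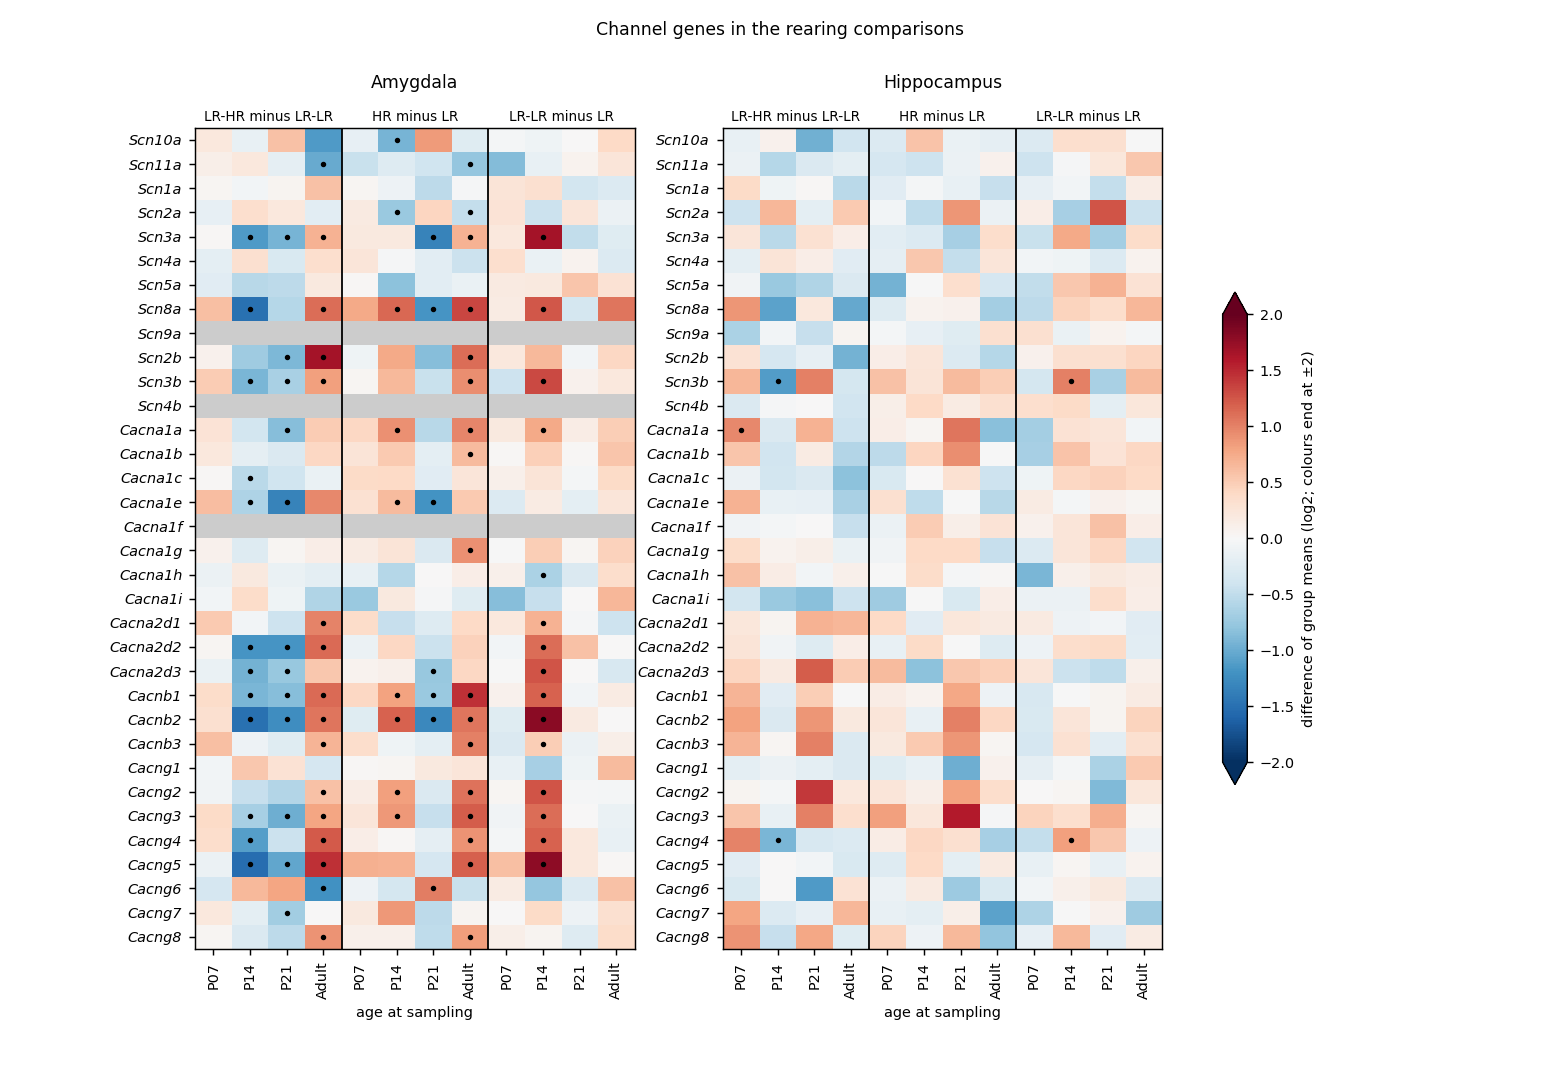
Difference of group means in log2 intensity for 34 channel genes in the 3 rearing comparisons at 4 ages, in each region; a dot marks an adjusted p under 0.05, grey marks genes without amygdala values, and colours end at 2 in either direction. In the amygdala the foster comparison has 12 lower genes at P14 and 14 higher genes in adults, and the hippocampus has 5 dots in all.

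The line comparison set HR against LR rats, each with their own mother. Its groups share no array with those of the foster comparison, though the spread in both was estimated from the same 20 arrays. In the amygdala limma called 0 of 32 at P07 (0.131% of all transcripts called). There 5 had an unadjusted p under 0.05, a threshold not counted over all transcripts. At P14 8 were higher and 2 lower in HR pups (22.8% of all transcripts, 12.8% higher and 9.98% lower), at P21 1 higher and 6 lower (15.7% of all transcripts, 4.03% higher and 11.6% lower), and in adults 16 higher and 2 lower (28.1% of all transcripts, 20.2% higher and 7.88% lower). Without LR replicate 5 the P21 count was 4. Median differences were 0.23 over the channel genes and 0.04 over all transcripts at P14, -0.36 over the channel genes and -0.14 over all transcripts at P21, and 0.55 over the channel genes and 0.09 over all transcripts in adults.

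At P14 Cacnb2 (1.19 ± 0.25), Scn8a (1.16 ± 0.21) and Cacna1a (0.91 ± 0.21) led the higher genes, and Scn10a (-0.94 ± 0.26) and Scn2a (-0.74 ± 0.19) were lower. The Scn10a call was lost in the fit of the compared groups only (adjusted p = 0.0592). At P21 Scn3a (-1.33 ± 0.21), Cacnb2 (-1.29 ± 0.22) and Cacna1e (-1.19 ± 0.27) were lowest, and Cacng6 was higher by 1.02 ± 0.34 (adjusted p = 0.0453), a call lost in 7 of 10 fits that left out 1 array. In adults Cacnb1 (1.46 ± 0.25), Scn8a (1.34 ± 0.26) and Cacng3 (1.21 ± 0.17) led. Adult Scn8a read 8.40, 8.33, 8.77, 8.80 and 8.67 in HR and 7.28, 6.97, 6.55, 7.69 and 7.78 in LR rats. Adult Scn2b read 7.08, 7.96, 7.77, 7.83 and 7.58 in HR and 6.36, 6.29, 6.35, 6.59 and 7.06 in LR rats. Neither gene overlapped between the HR and LR groups, which differ in both line and dam. The lower adult genes were Scn11a (-0.78 ± 0.26), lost in 4 of 10 fits that left out 1 array, and Scn2a (-0.48 ± 0.17), lost in 7 of 10 fits that left out 1 array.

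Calls shared by the foster and line comparisons in the amygdala were counted. In adults 13 channel genes were called in both, 81.2% of the foster and 72.2% of the line calls, and 13 had the same direction. At P21 5 were shared (41.7% and 71.4%), 5 in the same direction. At P14 5 were shared (41.7% and 50%), 0 in the same direction. Over all transcripts, 61.7% of foster and 47.7% of line calls were shared in adults, 46.7% and 64.4% at P21, and 55.8% and 54.5% at P14. Of shared calls over all transcripts, 2954 of 2972 shared calls in adults, 2235 of 2239 at P21 and 19 of 2756 at P14 had the same direction.

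The fostering comparison, LR-LR against LR, set pups with a foster LR dam against pups with their own. At P14 14 of 32 amygdala channel genes were higher and 1 lower in LR-LR pups, against 37.7% of all transcripts called, 24.9% higher and 12.7% lower. Cacnb2 (1.81 ± 0.25), Cacng5 (1.78 ± 0.28) and Scn3a (1.67 ± 0.32) led. Cacnb2 read 7.63, 6.83, 6.95, 7.89 and 7.58 in LR pups, below all LR-LR arrays given above. The lower gene was the T-type channel Cacna1h (-0.64 ± 0.22), lost in 2 of 10 fits that left out 1 array. It was also lost in the fit of the compared groups only (limma adjusted p = 0.0765). Among the higher genes, the calls of Cacnb3 and Cacna2d1 were lost in 8 and 6 of 10 fits that left out 1 array. In the fit of the compared groups only both were lost (limma adjusted p = 0.0735 and 0.062). With quantile normalization these and that of Cacna1a were lost (limma adjusted p = 0.0677 to 0.214). The foster and fostering comparisons share the LR-LR arrays. At P07, P21 and in adults 3, 2 and 6 of 32 had an unadjusted p under 0.05, a threshold not counted over all transcripts. At these ages limma called 0 of 32, against 0.0586%, 0.0135% and 0.658% of all transcripts. In adults the count was 1 with the replicate number as a block (Scn8a, 1.07 ± 0.24; 1.74% of all transcripts) and 1 without LR-LR replicate 1.

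Amygdala age steps were then taken within each rearing group, chosen after seeing the data. From P07 to P14 13 channel genes rose and 1 fell in LR-LR (22.4% up and 10.9% down over all transcripts), 9 and 4 in HR (8.33% up and 11.9% down), 4 and 4 in LR (6.56% up and 7.96% down), and 2 and 1 in LR-HR pups (3.75% up and 4.28% down). From P14 to P21 17 rose and 1 fell in LR (26.1% up and 12.8% down), 1 and 2 in LR-LR (1.11% up and 0.865% down), 1 and 2 in LR-HR (1.37% up and 3.69% down), and 1 and 1 in HR pups (4.11% up and 4.07% down). From P21 to adulthood 19 fell and 1 rose in LR (25.1% down, 11.4% up), and 17 fell and 2 rose in LR-LR rats (27.4% down, 12.7% up). In the same step 10 rose and 1 fell in LR-HR (2.16% down, 9.44% up), and 8 rose and 1 fell in HR rats (3.62% down, 10.6% up). Scn8a fell by 2.60 ± 0.24 in LR and 1.18 ± 0.24 in LR-LR rats, and changed by 0.51 ± 0.24 (adjusted p = 0.156) in LR-HR and -0.07 ± 0.24 (adjusted p = 0.882) in HR rats. Cacnb2 fell by 1.38 ± 0.24 and 1.55 ± 0.24 in LR and LR-LR rats and rose by 0.77 ± 0.24 and 0.98 ± 0.24 in LR-HR and HR rats.

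Differences between these courses were tested directly. The foster comparison in adults minus that at P14 was called for 20 of 32 amygdala genes, 17 higher and 3 lower (38.5% of all transcripts, 25.5% higher and 12.9% lower), with medians of 0.83 over the channel genes and 0.08 over all transcripts. Cacng5 (2.98 ± 0.44, adjusted p = 8.06e-08), Scn8a (2.62 ± 0.34, adjusted p = 1.84e-09) and Cacnb2 (2.56 ± 0.34, adjusted p = 5.48e-09) differed most. Cacng6 (-1.87 ± 0.50), Scn11a (-1.23 ± 0.42) and Scn2a (-0.54 ± 0.20) went the other way. The P21 to adult change, compared after seeing the data, was higher in LR-HR than LR-LR rats for 18 genes and lower for 2 (41.1% of all transcripts, 30% higher and 11.1% lower), and higher in HR than LR rats for 18 and lower for 2 (39.6% of all transcripts, 28.9% higher and 10.7% lower). For Scn8a these differences were 1.69 ± 0.34 and 2.52 ± 0.34.

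**Figure D4:**
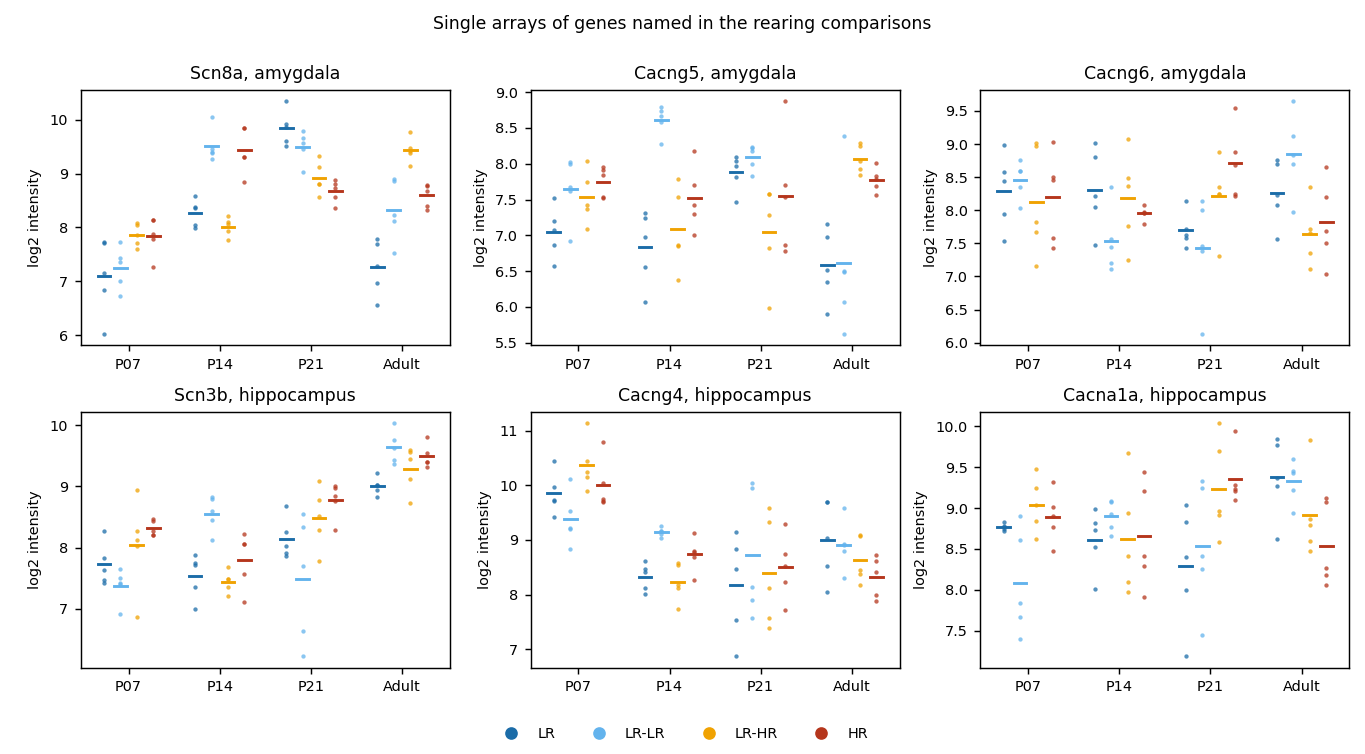
Log2 intensity of single arrays by age and rearing group for Scn8a, Cacng5 and Cacng6 in the amygdala and Scn3b, Cacng4 and Cacna1a in the hippocampus, with a bar at each group mean. Amygdala Scn8a is high in LR-LR and HR pups at P14 and in LR-HR and HR rats as adults, and hippocampal LR-LR arrays of Scn3b at P21 run from 6.23 to 8.55.

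Other gene lists moved with these amygdala differences. The mean over the channel genes was 8.57 in LR, 9.09 in LR-LR, 8.68 in LR-HR and 8.81 in HR pups at P14, and the mean of 68 ribosomal protein genes was 12.37, 11.14, 12.17 and 11.22. At P21 the channel means were 9.16, 9.15, 8.70 and 8.80 and the ribosomal means 11.01, 11.03, 12.10 and 11.81. In adults they were 8.48, 8.67, 9.10 and 8.97 against 12.11, 12.03, 11.81 and 11.12. At each of these ages the 2 groups with the higher channel means had the lower ribosomal means.

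Cell type markers also moved. The neuron list (5 of 6 measured) stood at 13.08 in LR-LR and 12.77 in LR-HR pups at P14, 13.35 and 12.93 at P21, and 12.70 and 13.24 in adults. The astrocyte list (6 of 6) stood at 10.91 and 10.42, 11.25 and 10.47, and 10.30 and 11.03. The myelin list (6 of 6) stood at 10.10 and 10.34, 12.67 and 12.12, and 11.41 and 12.09. Neuron and astrocyte lists were thus higher in LR-LR at P14 and P21 and in LR-HR as adults, as were the channel genes. The myelin list went the other way at P14, where it was higher in LR-HR pups. Other marker lists were measured and are not given here. The part of the ribosomal, neuron, astrocyte and myelin lists in the channel gene differences was not tested.

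**Figure D5:**
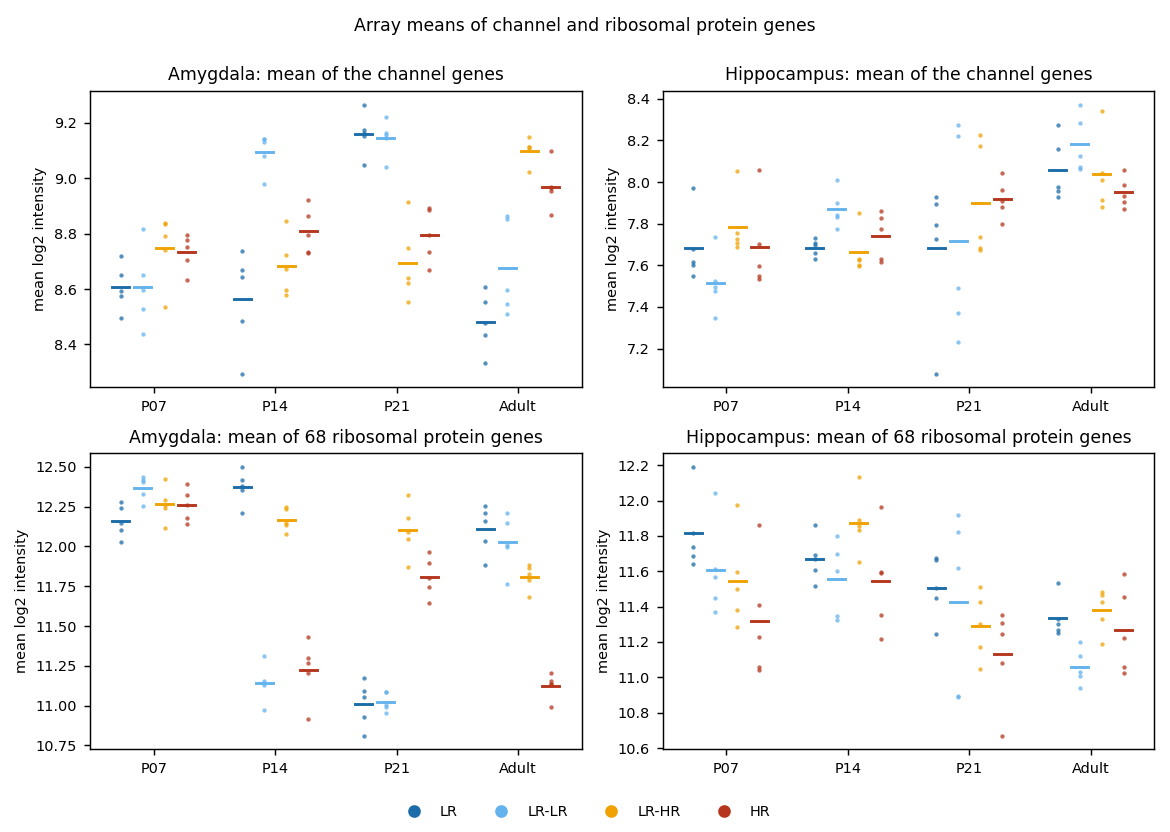
Mean log2 intensity per array of the channel genes and of 68 ribosomal protein genes in each region, by age and rearing group, with a bar at each group mean. In LR-LR amygdala at P14 the channel mean is 9.09 and the ribosomal mean 11.14, and in LR pups 8.57 and 12.37.

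In the hippocampal foster comparison at P07 Cacna1a was higher in LR-HR pups, 1 of 35 genes (2.86%) against 2.91% of all transcripts, 2.22% higher. It read 9.04, 8.62, 8.84, 9.48 and 9.24 in LR-HR and 7.84, 7.67, 8.61, 7.40 and 8.91 in LR-LR pups, with overlap (0.96 ± 0.27, adjusted p = 0.0468). The call was lost in 7 of 10 fits that left out 1 array. The count was 0 without LR-LR replicate 1, 2 or 4 or LR-HR replicate 3 or 5, and 2 without LR-LR replicate 5. An unadjusted p under 0.05 was found for 12 of 35, and median differences were 0.28 over the channel genes and -0.04 over all transcripts. Same-numbered arrays deviated together in this comparison. With the replicate number as a block, 6 genes were higher, 17.1% of 35, against 8.74% of all transcripts called and 5.85% higher. They were Cacng4 (0.99 ± 0.19), Cacna1a (0.96 ± 0.23), Cacng8 (0.90 ± 0.22), Scn8a (0.88 ± 0.24), Cacnb2 (0.81 ± 0.25) and Cacnb3 (0.68 ± 0.18), at an adjusted p of 0.00185 to 0.0445.

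At P14 Scn3b and Cacng4 were lower in LR-HR than LR-LR pups, 2 of 35 (5.71%) against 0.583% of all transcripts, 0.51% lower. Scn3b read 7.50, 7.21, 7.36, 7.49 and 7.68 in LR-HR and 8.83, 8.45, 8.79, 8.60 and 8.12 in LR-LR pups (-1.11 ± 0.24, adjusted p = 0.0306). Cacng4 read 8.12, 8.58, 8.18, 7.73 and 8.54 in LR-HR and 9.17, 9.16, 9.11, 9.04 and 9.26 in LR-LR pups (-0.91 ± 0.21, adjusted p = 0.0468). Neither gene overlapped between these groups. Both were also higher in LR-LR than LR pups (1.53% of all transcripts, 1.1% higher), Scn3b by 1.02 ± 0.24 (adjusted p = 0.0325) and Cacng4 by 0.82 ± 0.21 (adjusted p = 0.0481). LR arrays read 7.89, 7.75, 7.72, 7.36 and 7.0007 for Scn3b and 8.46, 8.61, 8.12, 8.42 and 8.01 for Cacng4, and HR arrays 8.07, 8.07, 7.11, 7.56 and 8.22 and 8.27, 8.79, 8.80, 8.69 and 9.13. LR-LR arrays lay above all LR and LR-HR arrays for both genes and overlapped the HR arrays. The foster count was 0 without LR-LR replicate 1, 3 or 4 or LR-HR replicate 1, 2, 3 or 4, and 1 without LR-LR replicate 2 or 5. The fostering count was 1 without LR replicate 1 or 3 or LR-LR replicate 5, and 0 without LR replicate 2, 4 or 5 or LR-LR replicate 1, 2, 3 or 4.

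No other hippocampal rearing comparison called a channel gene by limma. An unadjusted p under 0.05 was found for 7 and 8 of 35 genes in the foster comparison at P21 and in adults (0.969% and 0.00386% of all transcripts called). In the line comparison the numbers were 6, 3, 4 and 7 over the 4 ages (0.147%, 2.76%, 0% and 0.0502%). In the fostering comparison they were 3, 2 and 3 at P07, P21 and in adults (2.59%, 0.0116% and 0%). The percentages in this paragraph are of transcripts called at an adjusted p under 0.05, so they are not like for like with the unadjusted counts. The share of all transcripts at an unadjusted p under 0.05 is not given here. Without HR replicate 5 the line comparison at P14 called 3 genes. Without LR-LR replicate 4 or 5 the foster comparison at P21 called 3 or 4, and the fostering comparison 1. The fostering comparison at P07 called 1 without LR replicate 4 or LR-LR replicate 5, and 1 with the replicate number as a block (Cacna1h, -0.92 ± 0.19; 6.42% of all transcripts). The foster comparison in adults minus that at P14 called 0 of 35, with 1 at an unadjusted p under 0.05 and 0% of all transcripts called.

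Channel partners (anchors, kinases, release proteins and intracellular calcium channels) were counted from a list of 36 genes, 24 of them measured. In the amygdala foster comparison 15 were lower at P14 and 15 at P21, and 18 were higher in adults, against 13.7%, 15.5% and 17.2% of all transcripts. Ppp3r1, a calcineurin subunit (-1.90 ± 0.22), and Ank3, which anchors sodium channels at the initial segment (-1.66 ± 0.27), led at P14. Camk2d, a calmodulin kinase, led at P21 (-1.16 ± 0.18) and in adults (1.81 ± 0.23). In the line comparison 15 were higher and 1 lower at P14, 11 lower at P21, and 18 higher and 2 lower in adults, against 12.8%, 9.98%, 11.6%, 20.2% and 7.88% of all transcripts. In the fostering comparison 20 were higher at P14 (24.9% of all transcripts). In the hippocampus 6 were higher in LR-HR pups at P07 (2.22% of all transcripts), led by Ppp3r1 (1.82 ± 0.26) and the calcium sensor Syt1 (1.65 ± 0.28). From P07 to adulthood 17 rose in the hippocampus (14.9% of all transcripts), led by Camk2a (2.58 ± 0.17) and Snap25 (2.52 ± 0.17). In the amygdala 12 rose and 4 fell (17.9% and 17% of all transcripts), led by the intracellular calcium channel Itpr1 (1.73 ± 0.11) and Camk2a (1.63 ± 0.08).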

How the data were processed

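Total RNA of 160 samples was labelled with Cy3 as double-stranded cDNA and hybridised to 1-colour NimbleGen arrays, 1 array per sample, per the labels, which do not say whether both regions came from the same rats. The deposited table holds linear intensity values that the authors made with RMA, per the submitters' processing notes; neither RMA settings nor slides nor scan dates could be read from any label, and no batch was modelled. The regions were taken to be normalized separately, because median intensities were 177.46 to 234.81 on amygdala arrays and 114.03 to 130.42 on hippocampal ones. Medians also varied within a region, and whether its arrays were normalized together was not tested. The intensity was used as log2 with no pseudocount and no filter. The hippocampal random control was left out of fits.

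limma 3.58.1 (R 4.3.3) fitted all differences, and p-values were adjusted by Benjamini-Hochberg over all transcripts, with calls at an adjusted p under 0.05. Rearing comparisons used the 20 arrays of a region and age, age comparisons the 80 arrays of a region, and the difference between regions all 160. The fits were tested on simulated data, with noise drawn independently for each array. The share of large changes to be recovered was lowered after a first criterion was missed. Symbols came from the RefSeq gene table of assembly GRCr8. One channel gene is counted with the others and not reported here singly. The others may be named; the text gives the 3 largest called rises and falls of each comparison, a fixed panel by age, and the 2 largest called partners. The channel genes and lists were chosen with earlier results of these data known. Same-numbered arrays deviated together (every correlation over 0.1) in 8 of 24 rearing comparisons, with a range of -0.234 to 0.644 over all; there the numbers, which come from the sample titles, were taken as pairs, and the fit with the replicate block is given where it moved a count. Alternatives were quantile normalization, a filter above the median, the replicate block, fits of the compared groups only, leaving out each array, and leaving out arrays that stood apart.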

Additional observations from a re-analysis of the deposited data

Results flagged for a closer look

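Single arrays far from the other 4 of their group were looked for in 80 groups, where chance gives about 1 in 20. The arrays found are about as many as chance gives. LR-LR replicate 5 of amygdala Scn8a at P14 read 10.05. LR-LR replicate 2 of amygdala Cacnb2 at P21 read 9.27, below the others. The mean over all channel genes of a hippocampal LR array at P21 was 7.08. The same mean was 8.05 on an LR-HR array at P07 and 7.85 on an LR-HR array at P14, both in the hippocampus.

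The foster comparison differed between adults and P14 in the amygdala for 20 of 32 channel genes by its own test (38.5% of all transcripts). The sodium channel genes were Scn8a (2.615), Scn2b (2.37), Scn3a (1.82), Scn3b (1.74), Scn2a (-0.54) and Scn11a (-1.23). The calcium channel pore genes were Cacna1e (1.58) and Cacna1a (0.87), and the Cacna2d genes were Cacna2d2 (2.32), Cacna2d3 (1.48) and Cacna2d1 (1.04). Cacnb2 (2.56), Cacnb1 (2.04) and Cacnb3 (0.79) made up all measured Cacnb genes. With quantile normalization the calls of Cacnb3, Cacna1a and Cacna2d1 were lost (limma adjusted p = 0.122, 0.161 and 0.136). In the Cacng family they were Cacng5 (2.98), Cacng4 (2.32), Cacng3 (1.45), Cacng8 (1.20), Cacng2 (1.05) and Cacng6 (-1.87).

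The change from P07 to adulthood differed between the regions, amygdala minus hippocampus, by its own test for 12 of 32 genes (15.6% of all transcripts). Among these were Scn3b (-1.56), Cacng8 (-1.05), Scn3a (-1.02), Cacna2d3 (-0.93), Cacna1h (-0.89), Cacna2d1 (-0.86), Cacnb3 (-0.80), Scn1a (-0.72), Cacng2 (-0.65), Cacnb2 (-0.59) and Scn11a (0.65). The Cacng2 call was lost with quantile normalization (-0.41, limma adjusted p = 0.138).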

How the results depend on the processing

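No call changed direction under any alternative run. Of single-gene calls, 213 of 214 held with the replicate block (Cacng6 of the amygdala line comparison at P21 did not), 186 of 214 with quantile normalization, 153 of 182 with only the compared groups in the fit, 185 of 185 among transcripts above the median, 47 of 55 without the arrays that stood apart, and 4076 of 4430 when 1 array was left out. Counts of called channel genes that moved by over 1.5 times were as follows, and the cause was not tested. Quantile normalization gave 7 for the amygdala foster comparison at P21, 2 and 1 for the hippocampal foster and fostering comparisons at P07, and 7 for the hippocampal step from P21 to adulthood. The filter gave 1 for amygdala fostering in adults and, in the hippocampus, 2 and 1 for foster and fostering at P07 and 1 for foster at P21. The replicate block gave 1 for amygdala fostering in adults and, in the hippocampus, 6, 2 and 1 for foster, line and fostering at P07, 1 for line at P14 and 1 for foster at P21; it changed no other count by that much. Only the compared groups gave 0 for hippocampal foster at P07 and at P14, 1 for fostering at P14 and 5 for the steps from P14 to P21 and from P21 to adulthood. Without the arrays that stood apart the step from P21 to adulthood had 5.

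Leaving out 1 array in turn gave, in the amygdala, 12 to 17, 8 to 9 and 9 to 13 for the 3 steps in order of age and 10 to 12 for the span. In the hippocampus it gave 5 to 6, 5 to 11 and 8 to 12 for the steps and 16 to 18 for the span. At P07, P14, P21 and in adults the amygdala ranges were 0 to 1, 10 to 12, 8 to 14 and 13 to 19 for foster, 0 to 0, 9 to 12, 4 to 9 and 14 to 17 for line, and 0 to 0, 12 to 16, 0 to 0 and 0 to 1 for fostering. The hippocampal ranges were 0 to 2, 0 to 2, 0 to 4 and 0 to 0 for foster, 0 to 0, 0 to 3, 0 to 0 and 0 to 0 for line, and 0 to 1, 0 to 1, 0 to 1 and 0 to 0 for fostering. Leaving out single arrays was not run for the difference between regions or between ages of the foster comparison. Averaging all rows of a symbol was not run, as each gene had 1 row, and without the arrays that stood apart foster and fostering at P21 in the hippocampus could not be fitted. Genes near the random control are limited by signal over background.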
